A study of Mus musculus with 40 samples.

Results

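The inflammasome genes described here are 10 genes named as a list: the sensors *Nlrp3*, *Nlrc4* and *Aim2*, the adaptor *Pycard*, the NLRP3 partner *Nek7*, the caspases *Casp1* and *Casp4*, and the effectors *Gsdmd*, *Ninj1* and *Il18*. They are 10 of the 43430 genes in the count table. They were listed by name, with no threshold on a measured value, although earlier results of these data were known when the list was drawn up, and all 10 passed the filter on low counts that left 11853 genes for testing. RNA-seq was done on bone marrow-derived macrophages (BMDMs), cells grown from mouse bone marrow in M-CSF at 20 ng/ml and collected on day 6. Bone marrow came from 5 WT and 5 NDI1 mice, male and female, aged 8 to 14 weeks, on a mixed C57Bl/6J/N background. NDI1 mice carry a yeast NADH dehydrogenase behind a lox-stop-lox cassette in Rosa26, which Vav-iCre turns on in blood cell lineages. The yeast protein can oxidise NADH in mitochondria whose complex I is blocked by piericidin A. WT mice carry the same Vav-iCre transgene but not the NDI1 construct, so Cre was present in all 8 groups. BMDMs of each mouse were left untreated, exposed to ultrapure LPS (100 ng/ml, 4 h), exposed to the complex I inhibitor piericidin A (500 nM), or given this inhibitor 30 min ahead of LPS. This gave 5 libraries in each group and 40 in all, with 4 libraries from each mouse. The yeast transgene was not analysed here, so its expression was not checked in these libraries.

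Inflammasomes are protein assemblies that form in the cytosol of macrophages when a sensor detects a microbial product, foreign DNA or a disturbed cell state. The sensor recruits the adaptor ASC and with it caspase-1, which matures IL-1β and IL-18 and cuts gasdermin D into a pore-forming fragment. LPS supplies the priming step, in which Toll-like receptor signalling raises transcription of sensors and cytokine precursors, and a later signal triggers assembly. No trigger of assembly was given here, so the libraries report transcript levels of primed and unprimed cells and not inflammasome activity.

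Promoter sequence is shown for 5 members: *Nlrp3* and *Casp4*, which hold a kappaB consensus match, and *Aim2*, *Casp1* and *Il18*, which were lower with piericidin A in LPS-treated WT cells. All 5 rose with LPS, and *Aim2*, without a match, rose more than *Casp4*. Each run is the 250 bases before a RefSeq transcription start (GRCm38.p6), 5′ to 3′ on the strand of the gene, which is the plus strand for all 5. Capitals mark kappaB matches, the consensus for NF-κB. The *Nlrp3* run is chr11:59541319-59541568, *Casp4* is chr9:5308599-5308848, *Aim2* is chr1:173420354-173420603, *Casp1* is chr9:5298267-5298516 and *Il18* is chr9:50554450-50554699.
Nlrp3: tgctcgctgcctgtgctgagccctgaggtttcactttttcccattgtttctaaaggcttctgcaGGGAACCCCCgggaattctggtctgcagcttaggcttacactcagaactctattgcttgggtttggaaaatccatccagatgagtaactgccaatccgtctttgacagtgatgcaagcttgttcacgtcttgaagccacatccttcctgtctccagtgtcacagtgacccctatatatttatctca
Casp4: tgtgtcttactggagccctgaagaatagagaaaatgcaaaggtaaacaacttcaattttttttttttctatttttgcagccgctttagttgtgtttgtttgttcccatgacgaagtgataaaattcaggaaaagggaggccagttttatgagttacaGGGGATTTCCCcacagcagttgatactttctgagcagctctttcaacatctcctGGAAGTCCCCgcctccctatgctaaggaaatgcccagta
Aim2: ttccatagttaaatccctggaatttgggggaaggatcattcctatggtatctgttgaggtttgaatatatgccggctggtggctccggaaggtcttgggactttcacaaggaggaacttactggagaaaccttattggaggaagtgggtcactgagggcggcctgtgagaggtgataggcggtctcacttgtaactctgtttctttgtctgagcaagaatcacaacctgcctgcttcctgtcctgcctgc
Casp1: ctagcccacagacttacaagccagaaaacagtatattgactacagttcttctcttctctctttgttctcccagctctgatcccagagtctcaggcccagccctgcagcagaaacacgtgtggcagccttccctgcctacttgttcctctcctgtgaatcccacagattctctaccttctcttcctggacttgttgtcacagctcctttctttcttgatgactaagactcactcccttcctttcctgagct
Il18: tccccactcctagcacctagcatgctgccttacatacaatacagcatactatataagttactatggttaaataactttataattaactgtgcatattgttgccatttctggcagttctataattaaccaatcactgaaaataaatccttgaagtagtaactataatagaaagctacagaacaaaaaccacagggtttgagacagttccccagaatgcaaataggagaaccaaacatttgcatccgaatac
The capitals in *Nlrp3* lie 186 to 177 bases before the start. Those in *Casp4* lie 93 to 83 and 39 to 30 bases before it, and the first of these runs holds overlapping matches on both strands. RefSeq windows were found for 9 of the 10 members, 11 windows in all, and 3 of these windows, from 2 members, held the kappaB consensus, against 7.25% of all 32851 windows of the same length. Of these 3, 2 are overlapping *Casp4* windows that hold the same sites, and the *Nlrp3* window shown is the one of its 2 windows with a match. No member window held the interferon-stimulated response element GAAANNGAAA (2.98% of all windows), the STAT element TTCNNNGAA (7.02%) or the AP-1 element TGANTCA (6.75%), searched on both strands. A match is a description of the letters only. *Gsdmd* had no entry.

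All 10 members are protein-coding genes in the GENCODE M21 annotation, and the coordinates given here are those of the count table, in mm10. *Nlrp3* lies on chromosome 11 (59541568 to 59566956, plus strand), *Nlrc4* on chromosome 17 (74426295 to 74459108, minus strand) and *Aim2* on chromosome 1 (173350879 to 173466040, plus strand). *Pycard*, which encodes ASC, lies on chromosome 7 (127992103 to 127993867, minus strand), and *Nek7* on chromosome 1 (138482875 to 138620141, minus strand). *Casp1* (5298517 to 5307265) and *Casp4* (5308828 to 5336783) are neighbours on the plus strand of chromosome 9, which also carries *Il18* (50575273 to 50581837, plus strand). *Gsdmd* lies on chromosome 15 (75862339 to 75867404, plus strand) and *Ninj1* on chromosome 13 (49187485 to 49196244, plus strand). Exons of other genes overlap those of 2 members in GENCODE M21: *Gm45205* on the opposite strand covers 12.8% of *Pycard* exon sequence and *Gm28501* covers 1.6% of that of *Nek7*. The use of strand in the counting is not given in the sources used here, and the *Pycard* model of the table is shorter than that of GENCODE. Whether the overlaps lie in counted sequence was not checked, so reads of these pairs may be mixed. The *Il18* model of the table starts downstream of the RefSeq start at 50554700, and that of *Aim2* spans the RefSeq start shown above.

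Total counts per library ranged from 6950748 to 13552070 (median 10361773.5). Of 8 macrophage markers, 8 had a median CPM (counts scaled to the effective library size) above 1, with a summed level between 19700 and 38700 CPM. The 7 neutrophil markers, led by *Ngp* and *Ltf*, summed to 6.9 to 1650 CPM, with *Ly6g* at a median of 0 CPM. WT mouse 496 and NDI1 mouse 503 stood apart. Their summed neutrophil marker level was 312 to 1650 CPM in the first and 301 to 426 CPM in the second over their 4 libraries, against at most 90.2 CPM in any library of the other 8 mice. Tests of the members that rest on these mice are given below with and without both. Results for the wider list of pathway genes and the correlations are given only with them. The highest sums of lymphocyte (13 CPM), mast cell and basophil (6.58), dendritic cell (31.9), erythroid and megakaryocyte (36.8) and stromal and endothelial markers (111) were all in WT with LPS and piericidin A, and their part in the results was not tested. In bulk RNA, fewer cells that express a gene and less RNA per cell cannot be told apart, which holds for every result below.

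Levels are CPM after TMM scaling, and between genes they are compared per kilobase (kb) of GENCODE exon sequence. The count table gives other gene bounds than GENCODE for some members, which matters most for *Pycard*. In untreated WT cells *Ninj1*, which encodes a protein that ruptures the plasma membrane in the last step of lytic death, had the highest level at 250 ± 89.9 CPM per kb (SD, n = 5). *Casp1* followed at 52.5 ± 6.73 CPM per kb, and the ranges of these members did not overlap with each other or with the next. *Gsdmd* (25.1 ± 3.39), *Nek7* (21.5 ± 0.652), *Nlrp3* (20.0 ± 10.2) and *Pycard* (11.5 ± 1.93 CPM per kb) came next, and each range overlapped the range of its neighbour. The place of *Pycard* is not to be read from this order. Its GENCODE exon sequence (3800 bases) is longer than the whole span of its model in the table (127992103 to 127993867). Dividing by it sets *Pycard* too low if the counts follow that model. With the length column of the table (1405 bases) *Pycard* had 31.0 ± 5.23 CPM per kb. The lowest levels were those of *Casp4* (9.51 ± 3.17), *Aim2* (5.64 ± 1.04), *Il18* (4.13 ± 0.943) and *Nlrc4* (3.04 ± 0.569 CPM per kb), again without a gap between neighbours. With LPS the order changed. *Nlrp3* (351 ± 79.7), *Ninj1* (317 ± 54.4) and *Casp1* (299.7 ± 64.6 CPM per kb) then overlapped at the top, and *Nlrc4* was alone at the bottom with 1.71 ± 0.281 CPM per kb. The length column of the table differs from GENCODE for 9 of the 10 members, up to 4662 against 1570 bases for *Ninj1*, and the order depends on it. With that column *Ninj1* (54.1 to 118 CPM per kb) overlapped *Casp1* (45 to 62.7) in untreated WT cells, *Pycard* was above *Nek7* and *Nlrp3*, and *Aim2* was lowest in place of *Nlrc4*. In LPS-treated WT cells *Casp1* was then first and *Ninj1* was below *Nlrp3* and *Gsdmd*.

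**Figure D1:**
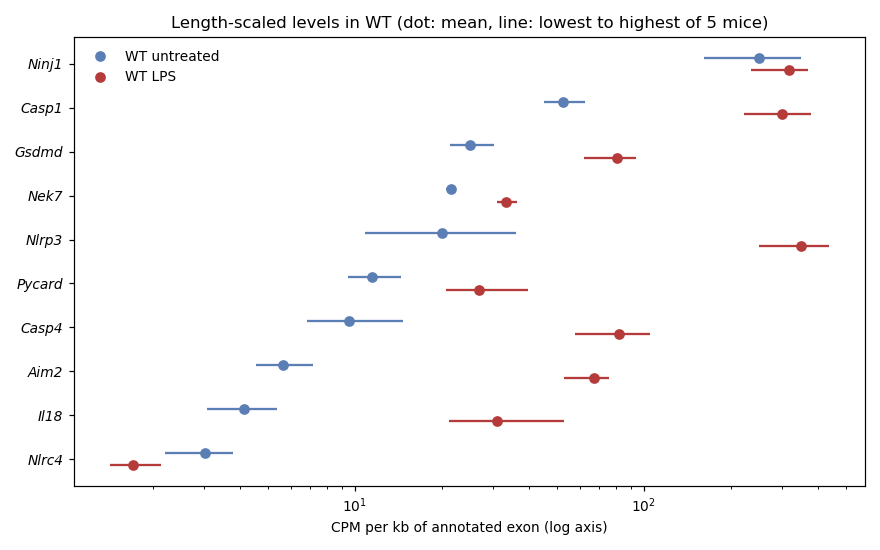
Level of each inflammasome gene in WT BMDMs, untreated or with LPS, as CPM per kb of GENCODE exon sequence on a log axis. Dots are means of 5 mice and lines run from the lowest to the highest mouse. The GENCODE length of *Pycard* is longer than its model in the count table, so its place among the members is not to be read here. *Nlrp3* moves from 20.0 to 351 CPM per kb, while *Ninj1* (250 and 317) and *Nek7* (21.5 and 33.3) move little.

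The first comparison asked which members respond to the priming signal. LPS raised 8 of the 10 members and lowered *Nlrc4* in WT cells, and did the same in NDI1 cells, with adjusted p-values from edgeR's quasi-likelihood test. Among all tested genes 62.5% passed in WT and 62.7% in NDI1, so the count of 9 members is to be read against a response that covered most genes. Members had a median log2 fold change of 2.10 (WT) or 2.01 (NDI1), where the median of all tested genes was −0.01 in both. Because LPS changes a large part of the RNA, the scaling matters here: without TMM factors all genes had a median of −0.78 (WT) or −0.77 (NDI1), while 14.6% of genes passed upward and 66.3% downward in WT, against 31.5% and 31% with TMM. All LPS changes below are relative to the TMM scale. Summed dendritic cell markers ranged from 1.22 to 4.45 CPM untreated and 7.81 to 16.9 CPM with LPS in WT. In NDI1 these ranges were 1.78 to 8.15 and 4.75 to 20.1 CPM. Neutrophil marker sums ranged from 13.2 to 312 CPM untreated and 22.4 to 585 CPM with LPS in WT. In NDI1 they were 6.9 to 301 and 12.8 to 381 CPM. The part of these markers in the LPS results was not tested.

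**Figure D2:**
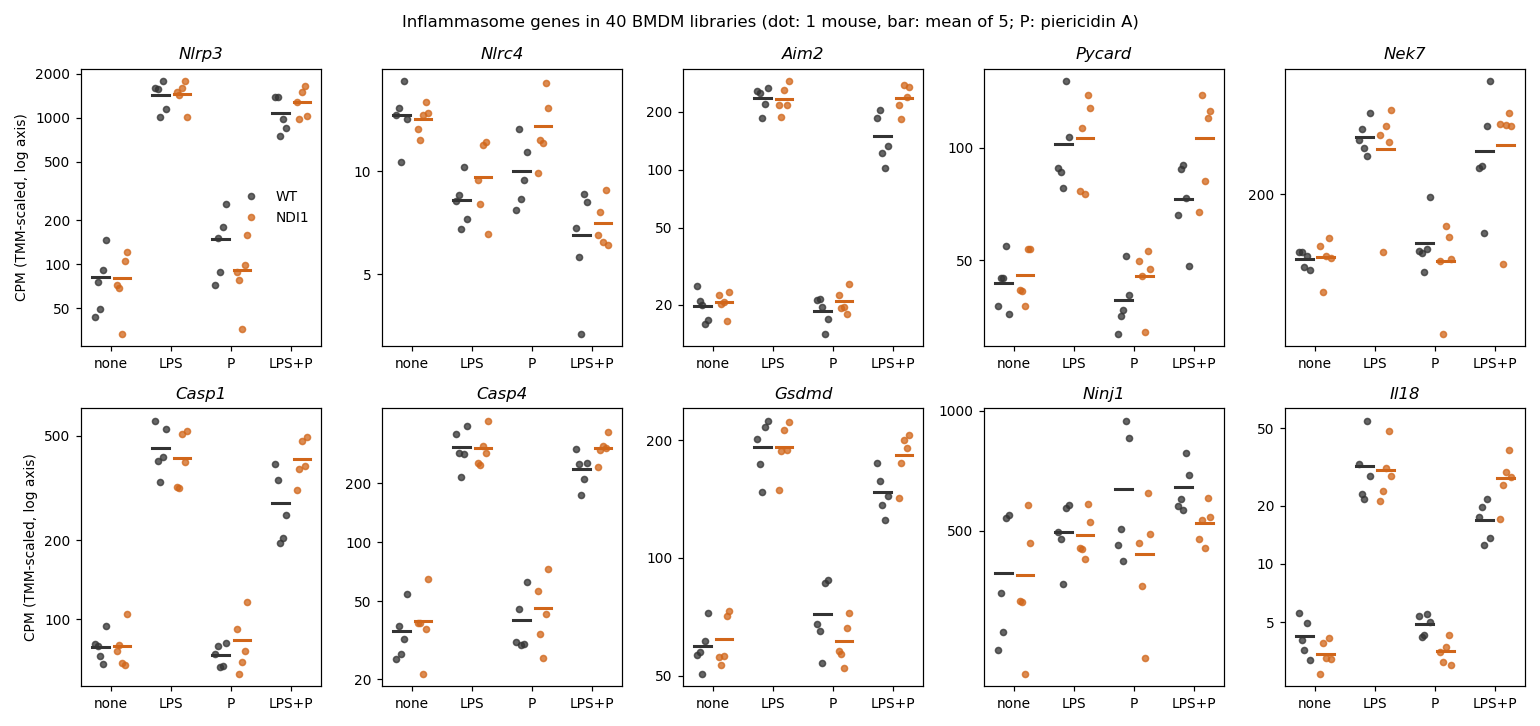
CPM (log axis) of each inflammasome gene in every library, by treatment and genotype. Dots are mice (5 per group) and bars are means. With LPS, all libraries lie above all untreated libraries of the same genotype for 8 members in WT, against 26% of all tested genes, and for 7 in NDI1, against 24.8% (*Nlrp3*, *Aim2*, *Pycard*, *Casp1*, *Casp4*, *Gsdmd* and *Il18* in both, and *Nek7* in WT). For *Ninj1* the groups overlap.

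*Nlrp3*, the sensor of potassium efflux and many other disturbances, stood at 43.8, 75.8, 49.3, 91.2 and 146 CPM in the 5 untreated WT mice, and the mice are in this order in each sentence on WT. With LPS the same mice had 1606, 1567, 1016, 1776 and 1152 CPM. In NDI1 cells the untreated values were 72.3, 68.5, 33.5, 105 and 122 CPM, and the LPS values 1497, 1432, 1591, 1770 and 1006 CPM. The lowest LPS-treated library was far above the highest untreated one in both genotypes. The log2 fold change was 4.13 ± 0.38 (SE, n = 5 mice, adjusted p = 6.41e-12) in WT and 4.19 ± 0.38 (adjusted p = 4.92e-12) in NDI1, that is 17.5-fold and 18.2-fold.

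*Aim2*, the sensor of cytosolic double-stranded DNA, rose from 25.03, 21.04, 19.9, 15.98 and 16.8 CPM to 257, 249.6, 186, 219 and 266 CPM in WT. The rise was 11.9-fold in WT (log2 3.58 ± 0.18, adjusted p = 4.68e-19) and 11.3-fold in NDI1 (3.49 ± 0.18, adjusted p = 8.65e-19). *Nlrc4*, which with NAIP proteins recognises flagellin and secretion system parts, went the other way. It fell from 14.6, 15.3, 10.6, 18.3 and 14.2 CPM to 8.17, 8.54, 6.8, 10.3 and 7.27 CPM in WT. Its log2 fold change was −0.83 ± 0.19 in WT (adjusted p = 0.00035) and −0.56 ± 0.19 in NDI1 (adjusted p = 0.0113), and in NDI1 the call was lost without mouse 521 (adjusted p = 0.0792). *Nlrc4* was thus the only member of the 10 that LPS lowered, in either genotype.

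*Pycard* rose 2.34-fold in WT (log2 1.23 ± 0.20, adjusted p = 2.76e-06) and 2.33-fold in NDI1 (1.22 ± 0.20, adjusted p = 3.07e-06). In WT its untreated range of 35.97 to 54.5 CPM lay below its LPS range of 78.1 to 150.4 CPM. *Nek7*, a kinase that bridges NLRP3 subunits, rose least among the members called, by 0.64 ± 0.13 in WT (adjusted p = 8.84e-05) and 0.56 ± 0.13 in NDI1 (adjusted p = 0.000392) on the log2 scale. Without TMM factors its log2 fold change turned negative, to −0.14 in WT and −0.21 in NDI1, and it was no longer called.

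*Casp1*, the protease of the canonical pathway, rose from 80.4, 79.4, 72.2, 67.3 and 93.9 CPM to 568, 401, 332, 415 and 528 CPM in WT, 5.70-fold (log2 2.51 ± 0.20, adjusted p = 1.11e-13). In NDI1 the rise was 5.21-fold (2.38 ± 0.20, adjusted p = 4.31e-13). *Casp4*, known in mice as caspase-11 and bound directly by cytosolic LPS, rose 8.64-fold in WT (3.11 ± 0.27, adjusted p = 2.16e-12) and 7.55-fold in NDI1 (2.92 ± 0.27, adjusted p = 9.54e-12). All 5 mice of each genotype showed both rises.

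*Gsdmd*, the pore former, rose 3.22-fold in WT (log2 1.69 ± 0.14, adjusted p = 8.16e-13) and 3.10-fold in NDI1 (1.63 ± 0.14, adjusted p = 1.93e-12). *Il18*, the cytokine precursor, rose from 5.54, 4.05, 3.59, 4.93 and 3.17 CPM to 32.8, 22.9, 21.8, 54.6 and 28.5 CPM in WT, 7.55-fold (2.92 ± 0.24, adjusted p = 2.87e-13), and 8.86-fold in NDI1 (3.15 ± 0.24, adjusted p = 7.38e-14). *Ninj1* was the member not called. It had 252, 349, 279, 538 and 548 CPM untreated and 498, 476, 368, 569 and 580 CPM with LPS in WT, groups that overlapped, with a log2 fold change of 0.34 (95% interval −0.15 to 0.83, adjusted p = 0.221) and 0.34 in NDI1 (adjusted p = 0.227). With the mouse as a block it was called in both genotypes, at 0.40 (adjusted p = 0.00719) and 0.40 (adjusted p = 0.00705), and without TMM factors its direction turned to −0.44 and −0.43 without a call.

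The LPS responses were then compared between genotypes. No member had an LPS effect that differed between NDI1 and WT by edgeR (0 of 10 called, with 0% of all tested genes called and 0 members at an unadjusted p under 0.05). The differences ranged from −0.19 to 0.27 on the log2 scale, and no 95% interval reached beyond 1.02. In direct comparisons of NDI1 with WT, 0 members were called in untreated cells and 0 with LPS, again beside 0% of all tested genes in each. No member had an unadjusted p under 0.05 in either. The largest interval bound was 0.80 in untreated cells and 0.71 with LPS. DESeq2 also called 0 members in these 3 comparisons.

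**Figure D3:**
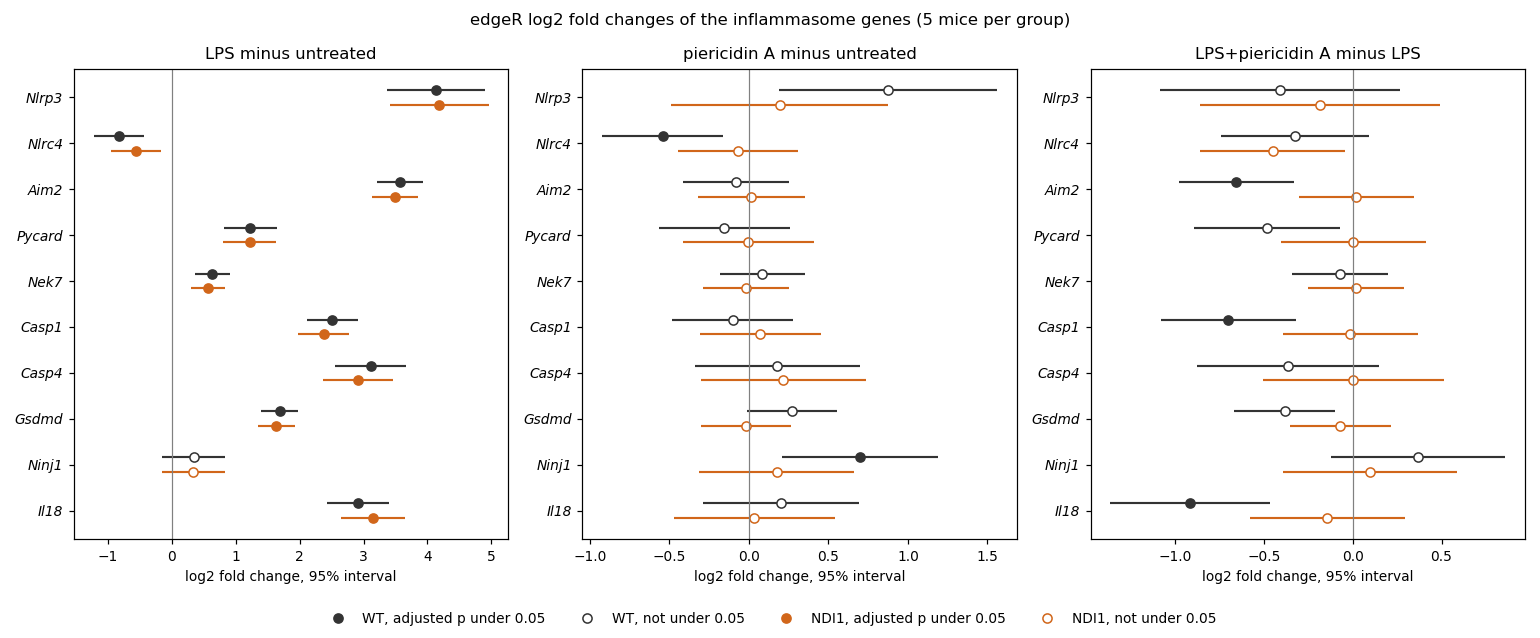
edgeR log2 fold changes of the inflammasome genes with 95% intervals, for LPS, piericidin A alone and piericidin A under LPS. Filled symbols have an adjusted p under 0.05. WT and NDI1 symbols nearly coincide for LPS, while with piericidin A under LPS only WT has filled symbols, for *Aim2*, *Casp1* and *Il18*.

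The next question was whether complex I inhibition alone moves these transcripts. Piericidin A without LPS changed 2 members in WT, against 14.8% of all tested genes, and 0 in NDI1, against 0%. In NDI1, 0 members had an unadjusted p under 0.05 and DESeq2 called 0. *Ninj1* rose in WT, to 462, 506, 421, 943 and 854 CPM from the untreated values above, a log2 fold change of 0.70 ± 0.24 (1.62-fold, adjusted p = 0.0466). It was higher in 5 of 5 WT mice, by 0.54 to 0.87 within mice, and in 5 of 5 NDI1 mice, by 0.07 to 0.48, where the log2 fold change was 0.17 (95% interval −0.31 to 0.66, adjusted p = 1). *Nlrc4* fell in 5 of 5 WT mice, to 7.72, 13.2, 8.28, 9.45 and 11.4 CPM (log2 −0.54 ± 0.19, adjusted p = 0.0457). Both groups overlapped with untreated cells when the pairing by mouse was ignored.

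Both calls were near the threshold. The *Ninj1* call was lost without any 1 of mice 447, 449, 452, 453, 460, 496, 520 or 521 (adjusted p 0.0587 to 0.13) and the *Nlrc4* call without any 1 of mice 447, 449, 460, 461, 496 or 520 (adjusted p 0.0547 to 0.208). Without mice 496 and 503 together they stood at 0.65 (adjusted p = 0.0944) and −0.43 (adjusted p = 0.178). With the mouse as a block 4 members were called in WT, against 34.2% of all genes. *Ninj1* was then called at an adjusted p of 0.000127 and *Nlrc4* at 0.00343, and both kept their calls in the blocked fit without those 2 mice (adjusted p = 0.00136 and 0.0475), against 22.9% of the 11768 genes tested in it.

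The other members called with the block were *Nlrp3* and *Gsdmd*. *Nlrp3* had 72.2, 150.1, 88.7, 179 and 256 CPM in WT with piericidin A. Each value was above that of the same mouse untreated, by 0.72 to 0.98 on the log2 scale, while the groups overlapped because the mice differed. The log2 fold change was 0.87 (adjusted p = 0.0749) in the fit without the block and 0.87 (adjusted p = 0.0209) with it. *Gsdmd* was higher in 5 of 5 WT mice by 0.09 to 0.49, at 0.27 (adjusted p = 0.195) and 0.26 with the block (adjusted p = 0.038). Neither was called in the blocked fit without mice 496 and 503 (adjusted p = 0.089 and 0.165). In NDI1 cells *Nlrp3* moved by −0.09 to 0.37 within mice, with a log2 fold change of 0.19 (95% interval −0.49 to 0.88).

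The neutrophil marker level moved with piericidin A alone in WT mice. Their sum was higher than in untreated cells of the same mouse in 5 of 5 WT mice, by 1.10 to 2.95 times, and stood at 0.882 to 1.45 times the untreated sum in NDI1 mice, higher in 3 of 5. In WT mouse 496 it went from 312 to 921 CPM, and in the other 4 WT mice it ranged from 13.2 to 53.3 CPM untreated and from 20.1 to 61.9 CPM with piericidin A. Leaving out mice 496 and 503 removes the highest sums but not the rise in the other WT mice, and its part in the results for *Ninj1*, *Nlrc4*, *Nlrp3* and *Gsdmd* was not tested.

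No member had an effect of piericidin A alone that differed between genotypes by edgeR (0 of 10, against 1.27% of all tested genes). At an unadjusted p under 0.05 there were 0 members, against 11.2% of all tested genes. With the block 0 members were called, against 8.96% of all tested genes, and by DESeq2 0, against 294 of 10917 genes. The difference for *Nlrp3* was −0.68 (95% interval −1.65 to 0.28) and that for *Ninj1* −0.52 (−1.21 to 0.17), NDI1 minus WT. In cells with piericidin A, 0 members were called between NDI1 and WT, against 7.8% of all tested genes. By edgeR 3 members (*Nlrp3*, *Nlrc4* and *Ninj1*) had an unadjusted p under 0.05 there, against 22.1% of all tested genes. DESeq2 called 0 members, against 1245 of 11835 genes. So the effects called in WT alone were not shown to differ from those in NDI1.

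The central comparison was piericidin A under LPS, which asks whether the primed level of these genes depends on complex I. In WT cells 3 of the 10 members fell, *Aim2*, *Casp1* and *Il18*, and none rose, against 16.7% of all tested genes called, 7.81% upward and 8.92% downward. The members' median log2 fold change was −0.40, against −0.02 over all tested genes. In NDI1 cells 0 members were called by edgeR, against 0% of all tested genes, with a median of −0.01. DESeq2 called 0 there as well, and 1 member had an unadjusted p under 0.05, against 1.07% of all tested genes.

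*Aim2* had 257, 249.6, 186, 219 and 266 CPM with LPS and 186, 204, 122, 102 and 132 CPM with LPS and piericidin A in WT. It was lower in 5 of 5 mice, by 0.29 to 1.10 on the log2 scale, although the groups overlapped. The log2 fold change was −0.66 ± 0.16 (adjusted p = 0.00418). In NDI1 cells *Aim2* had 215, 187, 259, 217 and 287 CPM with LPS and 218, 183, 274, 237 and 269.5 CPM with both, lower in 2 mice and higher in 3, at 0.02 ± 0.16 (95% interval −0.30 to 0.34). The WT call was lost without mouse 520 (adjusted p = 0.0529) and kept without mice 496 and 503 together, at −0.57 (adjusted p = 0.0275).

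*Casp1* had 391, 339, 196, 204 and 250.2 CPM with both agents in WT against 568, 401, 332, 415 and 528 CPM with LPS. It fell in 5 of 5 mice, by 0.24 to 1.08, a log2 fold change of −0.70 ± 0.19 (adjusted p = 0.00908). In NDI1 cells the values were 317, 317, 506, 398 and 522 CPM with LPS and 310.0, 374, 475, 384 and 495 CPM with both, at −0.01 ± 0.19 (95% interval −0.39 to 0.36). The WT call was lost without mouse 496 (adjusted p = 0.0622), without mouse 520 (adjusted p = 0.0835), without mice 496 and 503 together (−0.64, adjusted p = 0.0705) and with only the libraries compared (−0.65, adjusted p = 0.0568). With those 2 mice left out and the mouse as a block it was called (−0.64, adjusted p = 0.00486).

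*Il18* had 17.4, 19.6, 12.5, 21.6 and 13.6 CPM with both agents in WT, all below the lowest LPS-treated library at 21.8 CPM. It was the 1 member whose groups did not overlap, against 7.88% of all tested genes with ranges apart in either direction. The log2 fold change was −0.92 ± 0.22 (adjusted p = 0.00387), a drop in 5 of 5 mice by 0.22 to 1.33, and −0.74 without mice 496 and 503 (adjusted p = 0.0108). In NDI1 cells the values were 21.1, 23.8, 31.2, 48.6 and 28.4 CPM with LPS and 16.9, 25.5, 29.7, 38.5 and 28.0 CPM with both, at −0.14 ± 0.22 (95% interval −0.58 to 0.29).

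**Figure D4:**
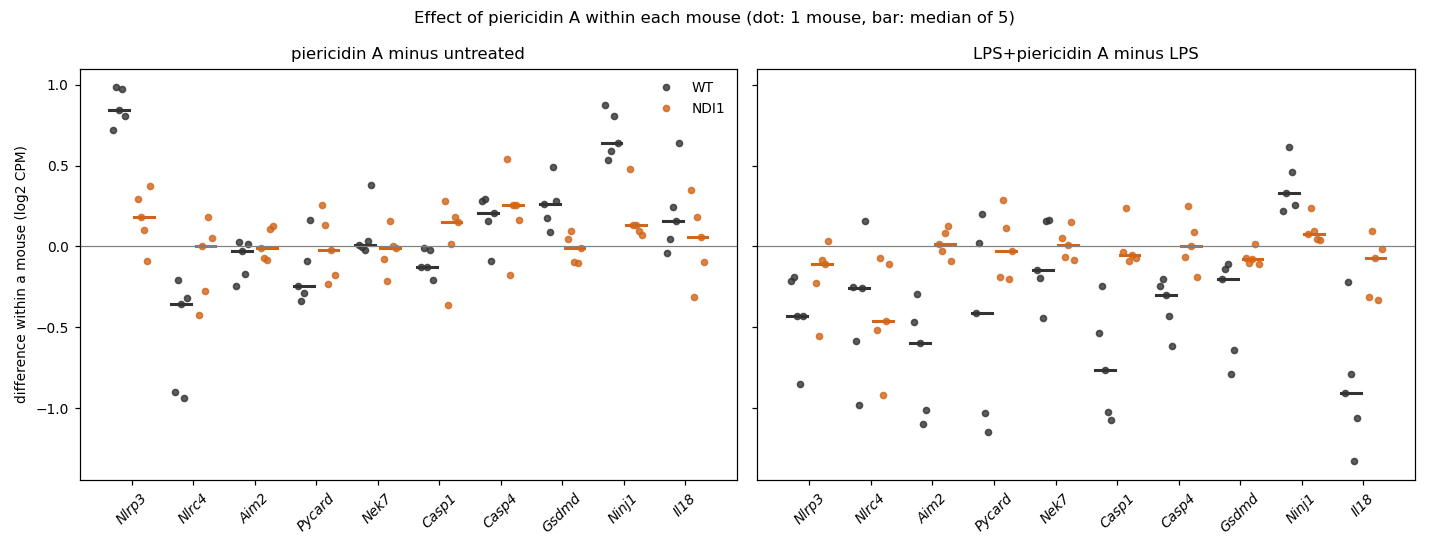
Difference in log2 CPM within each mouse between piericidin A and untreated (left) and between LPS with and without piericidin A (right). Dots are mice and bars are medians of 5. Under LPS the WT dots of *Nlrp3*, *Aim2*, *Casp1*, *Casp4*, *Gsdmd* and *Il18* are all below 0 and those of *Ninj1* all above 0. The NDI1 dots are all above 0 for *Ninj1* (0.04 to 0.24), all below 0 for *Nlrc4*, below 0 in 4 of 5 mice for *Nlrp3*, *Casp1*, *Gsdmd* and *Il18*, and between −0.09 and 0.13 for *Aim2*. The share of all tested genes with every mouse on the same side was not computed, so counts of mice have no background here or in the text.

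With the mouse as a block, 6 members were called in WT under LPS, 5 lower and *Ninj1* higher, against 34.5% of all tested genes. The additional members were *Pycard* (−0.46, adjusted p = 0.013), *Gsdmd* (−0.36, adjusted p = 0.00451) and *Ninj1* (0.38, adjusted p = 0.0245). Without the block they were at −0.48 (adjusted p = 0.098), −0.38 (adjusted p = 0.0533) and 0.37 (adjusted p = 0.302). *Gsdmd* had 201, 174, 147, 216 and 224 CPM with LPS and 174, 157, 136, 125 and 144 CPM with both, a drop in 5 of 5 mice. *Pycard* was lower in 3 of 5 WT mice. *Gsdmd* was called by DESeq2 (adjusted p = 0.0428) and by edgeR without any 1 of mice 447, 453 or 521 (adjusted p 0.0362 to 0.0495). In the blocked fit without mice 496 and 503, *Aim2*, *Casp1* and *Il18* were called and the other members were not, against 22.6% of the 11768 genes tested in that fit.

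*Nlrp3* under LPS was 1385, 1377, 754, 986 and 855 CPM with piericidin A in WT, lower than with LPS alone in 5 of 5 mice by 0.19 to 0.85 on the log2 scale. The groups overlapped, and the log2 fold change of −0.41 (95% interval −1.09 to 0.27) did not pass (adjusted p = 0.42, and 0.293 with the block). *Casp4* was also lower in 5 of 5 WT mice, at −0.36 (adjusted p = 0.335, and 0.0954 with the block). *Nek7* had a log2 fold change of −0.07 (95% interval −0.34 to 0.20) and *Nlrc4* one of −0.33 (adjusted p = 0.286). In NDI1 cells *Nlrc4* was lower in 5 of 5 mice at −0.45 (95% interval −0.86 to −0.04, adjusted p = 1), the 1 member with an unadjusted p under 0.05.

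Neutrophil markers moved with this comparison, too, in every WT mouse. Their sum was higher with LPS and piericidin A than with LPS in 5 of 5 WT mice, by 1.60 to 2.83 times, and in 5 of 5 NDI1 mice, by 1.12 to 1.31 times. It ranged from 22.4 to 585 CPM with LPS and from 44 to 1650 CPM with LPS and piericidin A in WT, and from 22.4 to 56.3 and 44 to 90.2 CPM without mouse 496. In NDI1 the ranges were 12.8 to 381 and 16.8 to 426 CPM. Over all libraries 3 of the 7 markers had a median above 1 CPM. Leaving out mice 496 and 503, as in the values above for *Aim2*, *Casp1* and *Il18*, removes the highest sums but not this rise, and its part in these results was not tested.

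In the direct comparison of genotypes with both agents 3 members were called. NDI1 cells had higher levels than WT cells for *Aim2* (0.66 ± 0.16, adjusted p = 0.00555), *Il18* (0.71 ± 0.22, adjusted p = 0.0308) and *Casp1* (0.56 ± 0.19, adjusted p = 0.0435), against 12% of all tested genes. This comparison shares its WT libraries with the one above and is no separate evidence. The groups overlapped for all 3. *Aim2* was called without each single mouse, and without mice 496 and 503 together *Aim2* (0.55, adjusted p = 0.044) and *Il18* (0.67, adjusted p = 0.0273) were called and *Casp1* was not (0.50, adjusted p = 0.197). *Casp1* was lost without any 1 of mice 453, 461, 496, 503, 520 or 521 (adjusted p 0.0672 to 0.154) or without TMM factors (adjusted p = 0.054), and *Il18* without any 1 of mice 449, 453, 461, 503, 520 or 521 (adjusted p 0.0531 to 0.104). When only the 10 libraries compared were fitted, none of the 3 was called (adjusted p = 0.0666, 0.0856 and 0.132 for *Aim2*, *Il18* and *Casp1*). *Pycard* stood at 0.54 (adjusted p = 0.0742) and was called without mouse 447 (adjusted p = 0.0292) or mouse 461 (adjusted p = 0.0496).

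Whether piericidin A acts differently in the genotypes under LPS was tested directly. Without the block 0 members passed, against 0.979% of all tested genes, while 3 had an unadjusted p under 0.05, against 14% of all tested genes. DESeq2 called 0 members, against 231 of 10229 genes. With the mouse as a block 3 passed, against 9.51% of all tested genes: *Aim2* (0.72 ± 0.15, adjusted p = 0.00234), *Il18* (0.75 ± 0.18, adjusted p = 0.0104) and *Casp1* (0.71 ± 0.18, adjusted p = 0.0137), all higher as NDI1 minus WT. In that fit without mice 496 and 503 *Aim2* was called (0.59, adjusted p = 0.0438) and was the only member called, against 2.46% of the 11768 genes tested. For *Nlrp3* the difference was 0.23 (95% interval −0.73 to 1.18) without the block.

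The LPS effect itself was also compared with and without piericidin A. In WT it was smaller with piericidin A for *Il18* (log2 difference −1.12 ± 0.33, adjusted p = 0.0387) and *Gsdmd* (−0.66 ± 0.20, adjusted p = 0.0456), 2 of 10 members against 4.75% of all tested genes. With the block 5 members passed, against 17.4% of all tested genes, which added *Nlrp3* (−1.27 ± 0.41, adjusted p = 0.0297), *Aim2* (−0.61, adjusted p = 0.00549) and *Casp1* (−0.62, adjusted p = 0.0198). In each WT mouse *Nlrp3* was higher with piericidin A alone than untreated and lower with both agents than with LPS. The *Il18* call without the block was lost without any 1 of mice 449, 453, 461, 496, 520 or 521 (adjusted p 0.0523 to 0.208) and the *Gsdmd* call without any 1 of mice 449, 452, 460, 461, 496, 503 or 520 (adjusted p 0.0561 to 0.343). Without mice 496 and 503 together neither was called (adjusted p = 0.0655 and 0.363). In the blocked fit without them *Il18* (−0.95), *Aim2* (−0.53) and *Gsdmd* (−0.47) were, against 8.31% of the 11768 genes tested. In NDI1 0 members passed by edgeR, against 0% of all tested genes, with 0 members at an unadjusted p under 0.05 and 0 by DESeq2.

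A wider list of 72 pathway genes was described beside the members, of which 71 were in the table and 66 were tested. With LPS in WT 42 rose and 11 fell, with a median log2 fold change of 0.83, beside 31.5% of all tested genes called upward and 31% downward. All 5 tested cytokine genes and all 5 tested guanylate-binding and related GTPases rose. *Il1a*, an alarmin cytokine, had the largest change of the first list (8.94) and *Gbp2*, which opens bacterial membranes and vacuoles, that of the second (5.58). *Il1b*, the cytokine whose precursor caspase-1 matures, rose from 3.55 ± 0.431 to 1630 ± 687 CPM (log2 8.84 ± 0.49, adjusted p = 8.63e-18). The largest changes in 5 of the other lists were rises of *Nod1*, a peptidoglycan sensor (4.13), *Clic4*, a chloride channel protein (3.98), *Irf1*, an interferon-response factor (3.06), *Eif2ak2*, a kinase that senses double-stranded RNA (2.88), and *Chmp4b*, which repairs membranes as part of the ESCRT machinery (1.59). Of 9 ion channel genes, 2 rose and 5 fell, among them *P2rx7*, the receptor for extracellular ATP (−1.71).

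With piericidin A under LPS in WT 3 of the 66 wider genes rose and 10 fell, with a median of −0.15, and 30 were called with the block. Among all tested genes 16.7% were called without the block and 34.5% with it, so the count of 13 without the block is near the background. The next 4 genes had the largest called change in their lists. *Kcnk13*, a two-pore potassium channel gene, rose from 12.4 ± 5.97 to 60 ± 37.9 CPM (log2 2.29 ± 0.36, adjusted p = 3.79e-05), having fallen with LPS from 77.3 ± 17.8 CPM (log2 −2.65, adjusted p = 6.4e-08). *Irf8*, a myeloid transcription factor gene, rose by 1.16 (adjusted p = 0.00368). *Txnip*, whose product can bind NLRP3, fell by 1.15 (adjusted p = 0.0158) and *Naip6*, a partner of NLRC4, fell by 0.53 (adjusted p = 0.017), both on the log2 scale. *Il1b* was at 875 ± 345 CPM, a log2 fold change of −0.90 (adjusted p = 0.0669) that passed with the block (adjusted p = 0.0069). In NDI1 cells 0 of the 66 genes were called with either fit, as were 0% of all tested genes in both. With both agents 9 of the 66 differed between NDI1 and WT, 5 higher and 4 lower in NDI1, near the 12% of all tested genes.

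Members were also compared by pattern, as Pearson's r of log2 CPM over the 40 libraries, a description in which the LPS groups weigh heavily. *Casp1* was close to *Aim2* (r = 0.985) and *Casp4* (0.980), and *Nlrp3* to *Casp4* (0.972) and *Gsdmd* (0.969). *Nlrc4* ran against the other members, with r from −0.68 with *Aim2* to −0.26 with *Ninj1*. After the group means were removed, r was 0.776 for *Casp1* and *Casp4*, 0.762 for *Nlrp3* and *Ninj1*, 0.739 for *Casp1* and *Aim2* and 0.706 for *Nlrp3* and *Casp4*, while *Nlrp3* and *Aim2* had −0.02. The 40 deviations come from 10 mice with 4 libraries each, so differences between mice enter these r values more than once. Of all tested genes the most like *Nlrp3* were *Rnf19b* (0.991), *Traf1* (0.990) and *Malt1* (0.990), and the most like *Aim2* were *Slc28a2* (0.993), *Tmem67* (0.993) and *Tor1aip2* (0.992). *Slc28a2* (0.987) was also near *Casp1*, with *Cnep1r1* (0.988) and *Cd47* (0.987). The nearest genes were *Acot9* (0.988), *Tnip3* (0.987) and *Slfn2* (0.986) for *Casp4*, and *Wdr43* (0.985), *Snx2* (0.985) and *Hdac1* (0.984) for *Gsdmd*. For *Il18* they were *Lgals9* (0.982), *Epsti1* (0.981) and *Chmp4b* (0.981), and for *Pycard* *Jpt1* (0.948), *Tmed1* (0.947) and *Stard7* (0.943). *Nek7* was nearest to *Serinc1* (0.943), *Sf3b1* (0.940) and *Slc35a3* (0.936). The least close neighbours were those of *Nlrc4*, *Sirpa* (0.888), *Smad5* (0.882) and *Tgfbr1* (0.877), and of *Ninj1*, *Rbpms* (0.856), *Rnf130* (0.852) and *Maff* (0.842).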

How the data were processed

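RNA-seq of BMDMs was analysed in 8 groups of 5 libraries, assigned from the labels. Per the study's methods and the submitters' processing notes, Trimmomatic was used for trimming, STAR for alignment (mm10) and HTSeq for counting in exons, and the authors deposited these raw counts per gene. The annotation release is not given in the sources used here. The table had 1 further column, of undetermined reads, which was not used. Symbols were matched to 42462 of 43430 genes.

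Counts were tested in R 4.3.3 with edgeR 4.0.16 (filterByExpr, TMM factors, glmQLFit with 1 mean per group over 40 libraries, glmQLFTest). P-values were two-sided and adjusted by the Benjamini-Hochberg method over 11853 genes (threshold 0.05). Standard errors were derived from the log2 fold change and its F statistic. Log2 CPM used a prior count of 2. The edgeR fit without a block was tested on simulated data, for the LPS comparisons only, with independent libraries and a fixed spread. The fit with the mouse as a block was not tested in this way. Alternatives were DESeq2 1.42.0, RLE factors, other filters, only the groups compared, each mouse left out, the mouse as a block, and, chosen after seeing the data, no TMM factors and the removal of mice 496 and 503.

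The 4 libraries of a mouse share its number in the labels. Their deviations from group means had a mean correlation of 0.453 (0.0995 to 0.769, 60 pairs), against −0.107 for different mice of a genotype (240 pairs). The study's methods name no block. Totals were 6950748 to 13552070 counts, and *Il18* and *Nlrc4* had the lowest mean CPM of the members in every group. SDs of CPM are spreads between mice. SEs of log2 fold changes come from the edgeR fits, and the fit without the block takes the 4 libraries of a mouse as independent. In the 80 pairs of replicates within groups the chi-square per degree of freedom was 9.35 to 77.3, above sampling noise in each pair.

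Members, lists and comparisons were chosen with earlier results of these data known. All members are named. Of the wider lists, the text names the largest called change in each list with LPS and with piericidin A under LPS in WT, *Il1b*, and *P2rx7*, chosen after its value was seen. The gene this rule gives for the list of cell death partners is not reported here. For each member the 3 most correlated genes are named. Promoter windows are from RefSeq (GRCm38.p6) and gene models from GENCODE M21.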

Additional observations from a re-analysis of the deposited data

Results flagged for a closer look

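Of 80 sets of 5 libraries (10 members in 8 groups), 3 had 1 library outside the spread of the other 4 by Dixon's test, all of them for *Nek7*. Chance flags about 1 in 20 such sets. *Nek7* was at 162.5 CPM with LPS and at 155.5 CPM with LPS and piericidin A in NDI1 mouse 460, where the next lowest mice had 241.7 and 255.5 CPM. In WT with piericidin A, mouse 520 had 198 CPM and the next highest mouse 164.1 CPM. *Nek7* was called with LPS in both genotypes whichever single mouse was left out.

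In the fit with the mouse as a block, NDI1 and WT cells responded differently to piericidin A in the presence of LPS for *Aim2* (log2 difference 0.72), *Casp1* (0.71) and *Il18* (0.75). Without the block none of the 3 passed (adjusted p = 0.138, 0.213 and 0.232), and in the blocked fit without mice 496 and 503 *Casp1* (adjusted p = 0.115) and *Il18* (adjusted p = 0.0507) were not called. The LPS effect in WT differed with and without piericidin A for *Gsdmd* (−0.66) and *Il18* (−1.12) in the fit without a block, and for *Nlrp3* (−1.27), *Aim2* (−0.61) and *Casp1* (−0.62) with the block. Without those 2 mice *Gsdmd* and *Il18* were not called without the block (adjusted p = 0.363 and 0.0655), and *Nlrp3* and *Casp1* were not called with it (adjusted p = 0.171 and 0.159).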

How the results depend on the processing

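Of 2770 recomputed log2 fold changes (150 member comparisons), 2531 kept their direction and side of the threshold, 65 lost the call, 24 gained one, 148 changed sign with no call before or after the change of setting and 2 called changes reversed, *Nek7* with LPS without TMM factors (−0.142 in WT and −0.211 in NDI1). For piericidin A alone in WT the 2 calls became 4 with the mouse as a block, 1 with RLE factors, 1 without TMM factors, and 0 without a filter, with only the groups compared or without mice 496 and 503. For piericidin A under LPS in WT the 3 calls became 6 with the block. For the difference of this effect between genotypes 0 became 3 with the block and 1 with the block and without those mice. For the LPS effect with against without piericidin A in WT, 2 became 5 with the block, 1 with RLE factors, without a filter or without TMM factors, and 0 with only the groups compared or without those mice. NDI1 against WT with both agents went from 3 to 0 with only the groups compared, and with piericidin A from 0 to 1 without TMM factors (*Nlrc4*). The cause of these changes was not tested. Blocking changed no other count of calls by over 1.5 times. With each mouse left out in turn, the counts ranged from 0 to 2 for piericidin A alone in WT, from 1 to 4 under LPS in WT, from 1 to 4 for NDI1 against WT with both agents, and from 0 to 2 for the LPS effect with against without piericidin A in WT.

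Counts over all genes moved by over 1.5 times as well. With the block, 1759 genes became 4049 for piericidin A alone in WT, 1983 became 4090 under LPS in WT, 563 became 2066 for the LPS effect with against without piericidin A in WT, and the differences between genotypes went from 150 to 1062 for piericidin A alone and from 116 to 1127 under LPS. With only the groups compared, 1983 became 891, 563 became 354, 116 became 49, and NDI1 against WT went from 1421 to 398 with both agents and from 924 to 477 with piericidin A. Without mice 496 and 503 these counts were 909 for piericidin A alone in WT, 956 under LPS in WT, 187 for the LPS effect, 73 and 18 for the differences between genotypes, and 574 and 458 for NDI1 against WT, and with the block added 2699 for piericidin A alone, 978 for the LPS effect, and 397 and 290 for the differences. DESeq2 called 294 and 231 in place of 150 and 116, 72 replaced 116 without a filter, and 1390 replaced 924 without TMM factors. With single mice left out the lowest and highest counts were 788 and 1800 for piericidin A alone in WT, 841 and 2023 under LPS in WT, 746 and 1792 for NDI1 against WT with both agents, 587 and 1115 with piericidin A, 163 and 596 for the LPS effect, and 63 and 200 and 27 and 255 for the differences between genotypes, so the shares of all genes called also depend on single mice. *Il18* and *Nlrc4* had the lowest mean CPM of the members in every group.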
